A study of Mus musculus with 4 samples.

Results

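Dividing cells among invariant natural killer T (iNKT) cells of the mouse thymus were taken as those with 4 or more UMIs, summed over Mki67, Top2a, Birc5, Cdk1, Rrm2 and Pclaf, among cells with at least 500 genes, at least 1000 UMIs and at most 10% mitochondrial UMIs. A UMI is a tagged RNA molecule. Cells with 2 or more UMIs of Cd8a and Cd8b1 together with 1 or more of Rag1, Dntt, Arpp21 and Aqp11, here called thymocyte-like, were left out. The rule found 864 dividing cells among 14781 kept cells outside the thymocyte-like gate, of 16320 deposited barcodes. Cells positive for CD3 and for CD1d tetramer loaded with PBS57 had been sorted from thymus of BALB/c and B6 mice, and 10x Genomics 5' single-cell libraries were made, 2 for each strain. The strain was the one difference named between the groups, and no treatment or engineered allele was named. Age and sex are not given in the sources used here, nor is whether a strain's 2 libraries stem from different animals, so p-values measure the spread between these libraries, which may be technical.

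iNKT cells carry a nearly fixed T cell receptor that recognises lipids on CD1d and are selected in the thymus on double-positive thymocytes. After selection, early iNKT cells divide in a burst and then settle into the iNKT1, iNKT2 and iNKT17 subsets. PLZF, the product of Zbtb16, directs the lineage and is highest in iNKT2 cells. T-bet, the product of Tbx21, marks iNKT1 cells, which resemble natural killer cells, and iNKT17 cells are known for the IL-23 receptor and IL-17.

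The label was checked against markers, and they gave a mixed picture. Zbtb16 had a UMI in 98.5% and 96.7% of the dividing cells of the first and second BALB/c library, and in 90.1% and 94.9% of those of the first and second B6 library (B6 1 and B6 2). Trac, the receptor alpha constant gene, had one in 92.4% to 95.9% of them. At 4000 UMIs per cell, Zbtb16 was found in 69.5%, 69.7%, 64.2% and 82.3% of dividing cells and in 0%, 10.7%, 5.77% and 30.6% of thymocyte-like cells, which numbered 24, 56, 52 and 121 at that depth. Trac, which thymocytes also express, was found in 45.0%, 56.6%, 67.5% and 66.2% against 25%, 46.4%, 51.9% and 64.5%. The 12 genes of iNKT identity together summed to 3077 to 3783 CPM, UMIs scaled to the same total in each sum, in dividing cells, below other cells (4292 to 4920 CPM) and thymocyte-like cells (4351 to 4769 CPM). Trav11, the variable segment of the iNKT receptor, had one in 26.7%, 17.1%, 23.1% and 8.38% of them in the same order of libraries, against at most 2.0% of thymocyte-like cells, which had fewer UMIs per cell. Foxp3, which defines regulatory T cells, had 0 UMIs in 864 dividing cells, which allows a share of up to 0.347% (3 counts of the total, the limit used for each count of 0). That limits cells with a UMI, not cells expressing the gene. The 12 double-positive thymocyte markers summed to 149 to 226 CPM in dividing cells and to 7249 to 9663 CPM in thymocyte-like cells. A UMI of Rag1, Dntt, Arpp21 or Aqp11 was found in 9, 11, 27 and 120 dividing cells in the same order of libraries. Aqp11 was found in 4.58%, 4.07%, 20.7% and 19.6% of dividing cells.

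The libraries held 131, 123, 121 and 489 dividing cells, with the BALB/c libraries given before the B6 libraries, in which order all sets of 4 values are given. Their summed UMIs were 3646537, 3690478, 3424603 and 11016994. A dividing cell had a median of 27365, 28880, 29150 and 23612 UMIs. Another kept cell outside the thymocyte-like gate had 11114, 9407, 7118 and 7000, so the dividing cells were 2.46 to 4.10 times deeper. Just outside the rule, with 3 UMIs, were 12, 16, 12 and 82 cells, and just inside it, with 4, were 14, 8, 7 and 54. Most dividing cells, 108, 103, 105 and 369, had more than 6. A doublet score marked 0, 1, 0 and 31 of them as likely doublets. Of cell barcodes, 109 were shared between pairs of libraries, and 1 of these was a dividing cell in both. The 7 B cell markers summed to 25.5, 122, 457 and 59.8 CPM in dividing cells, with Ms4a1 and Ebf1 at 0 in BALB/c 1 and B6 2, and most of the Cd79a UMIs of BALB/c 2 and B6 1 lay in 1 cell of each. Calls without the cells holding B cell or myeloid UMIs are given with the strain comparison.

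Shares are given of kept cells outside the thymocyte-like gate. Dividing cells made up 7.56% (exact 95% binomial interval 6.36 to 8.91) of these in BALB/c 1 and 7.12% (5.95 to 8.43) in BALB/c 2. They made up 5.57% (4.64 to 6.61) in B6 1 and 5.35% (4.89 to 5.83) in B6 2. Intervals cover counting error only. Both BALB/c libraries were above both B6 libraries, by a mean of 7.34% ± 0.31 against 5.46% ± 0.15 (SD, n = 2 each), a difference of 1.88 percentage points. The exact two-sided permutation p was 0.33, the smallest that this test can give with 2 against 2 libraries. With each cell thinned to 4000 UMIs and 2 or more UMIs of the 6 genes asked for, the difference was 0.60 points (exact permutation p = 0.667). A stricter thymocyte exclusion left out cells that met either part of the thymocyte-like gate. With it the difference was 2.50 points (exact permutation p = 0.33).

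**Figure D1:**
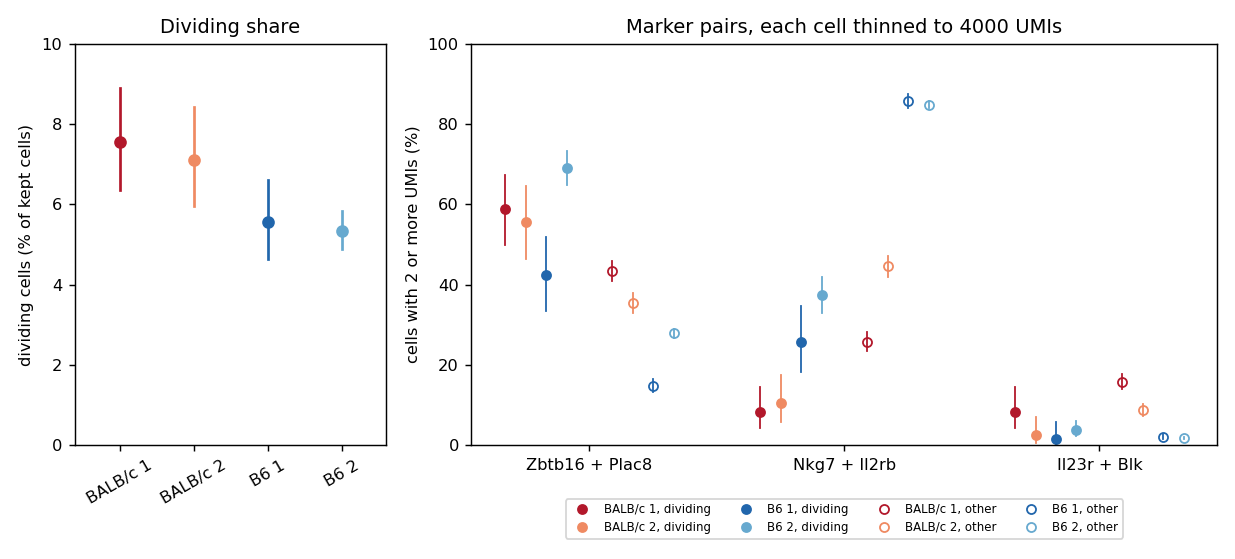
Left, dividing cells as a percent of kept cells outside the thymocyte-like gate in each library. Right, percent of dividing (filled) and other (open) cells with 2 or more UMIs of each marker pair after thinning each cell to 4000 UMIs. Points are libraries and bars exact 95% binomial intervals; the Nkg7 and Il2rb pair reached 25.8% and 37.4% of B6 dividing cells and 8.40% and 10.7% of BALB/c dividing cells.

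Of the marker pairs, dividing cells of both strains held the iNKT2-associated pair most often. Zbtb16 directs the whole lineage, so a cell with this pair need not be an iNKT2 cell. The genes also differ in UMIs: Zbtb16 had 2659 in BALB/c and 7601 in B6 dividing cells, and Il23r 69 and 122. The order of the pairs thus does not rank the subsets. After thinning to 4000 UMIs, 2 or more UMIs of Zbtb16 and Plac8 were found in 58.8% and 55.7% of the dividing cells of BALB/c 1 and 2, and in 42.5% and 69.1% of those of B6 1 and 2. The B6 libraries lay on either side of the BALB/c libraries, and the strain means differed by 1.43 points (exact permutation p = 1.0). The file header of B6 2 names Cell Ranger 7.1.0 and those of the other libraries 6.0.0, and its part in this spread was not tested. Over genes, log2 levels in dividing cells differed more between the B6 libraries (SD 0.52) than between the BALB/c libraries (SD 0.24). In other cells the pair was found in 43.4%, 35.5%, 14.9% and 27.9% in the same order. In thymocyte-like cells of that depth, taken here as a rough background, it was found in 1.92% to 16.5%. Without thinning, the pair was found in 97.7%, 96.7%, 90.9% and 92.6% of dividing cells.

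The iNKT1-associated pair, Nkg7, a cytotoxic granule protein, and Il2rb, the shared beta chain of the IL-2 and IL-15 receptors, was less frequent in the dividing cells of each library than in its other cells. It was found in 8.40% and 10.7% of dividing cells of BALB/c 1 and 2, and in 25.8% and 37.4% of those of B6 1 and 2. Both B6 libraries were above both BALB/c libraries, with a difference of -22.1 points (exact permutation p = 0.33, the smallest possible). In other cells it was found in 25.8%, 44.6%, 85.9% and 84.9%. Thymocyte-like cells gave 4.17%, 0% (0 of 56 cells, which allows up to 5.36%), 13.5% and 41.3%, so the share of B6 2 dividing cells was below this background and is read as no more than it, and the background was itself higher in B6. Without thinning, the Nkg7 and Il2rb pair was found in 67.2%, 71.5%, 76.0% and 83.6% of dividing cells.

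The iNKT17-associated pair, Il23r, a chain of the IL-23 receptor, and Blk, a Src family kinase, was found in 8.40%, 2.46%, 1.67% and 3.83% of dividing cells, or 11, 3, 2 and 18 cells. These cells also held Aqp3, an aquaporin of the iNKT17 list named after its values were seen, at 171, 134, 125 and 89.2 CPM. A floor of 3 UMIs over these cells was 12.2, 36.5, 46.8 and 6.37 CPM. In dividing cells with Zbtb16 and Plac8 but without the Nkg7 and Il2rb pair, Aqp3 was at 4.25 to 11.4 CPM. Other genes of the iNKT17 list are not reported here for the cells with Il23r and Blk. Il23r and Blk were found in 0 of 253 thymocyte-like cells at this depth, which allows a share of up to 1.19%. The strain difference was 2.68 points (exact permutation p = 0.667), and it turned to -0.29 points without BALB/c 1.

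Cells were then grouped by the pairs they held, and the share that was dividing was read within each group. This share was 11.6%, 12.6%, 28.6% and 23.5% in cells with Zbtb16 and Plac8 alone. It was 1.32%, 1.01%, 1.54% and 1.46% in cells with Nkg7 and Il2rb alone. The first was 8.74 to 18.6 times the second, and higher in 4 of 4 libraries. Cells with both pairs lay between, at 11.1%, 8.11%, 6.06% and 6.88%. Cells with none of the pairs were dividing at 10.4%, 13.4%, 28.3% and 17.7%. With division itself called on thinned counts, the shares were 9.82%, 9.68%, 22.9% and 18.4% for Zbtb16 and Plac8 alone and 0.99%, 0.51%, 1.90% and 1.84% for Nkg7 and Il2rb alone. In the group with Zbtb16 and Plac8 alone the B6 shares were above the BALB/c shares (exact permutation p = 0.33, the smallest possible). Depth moved with these groups, since other cells with Nkg7 and Il2rb alone had medians of 6928 to 7282 UMIs and those with Zbtb16 and Plac8 alone 13916 to 15411; its part in the shares was not tested beyond the thinning.

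**Figure D2:**
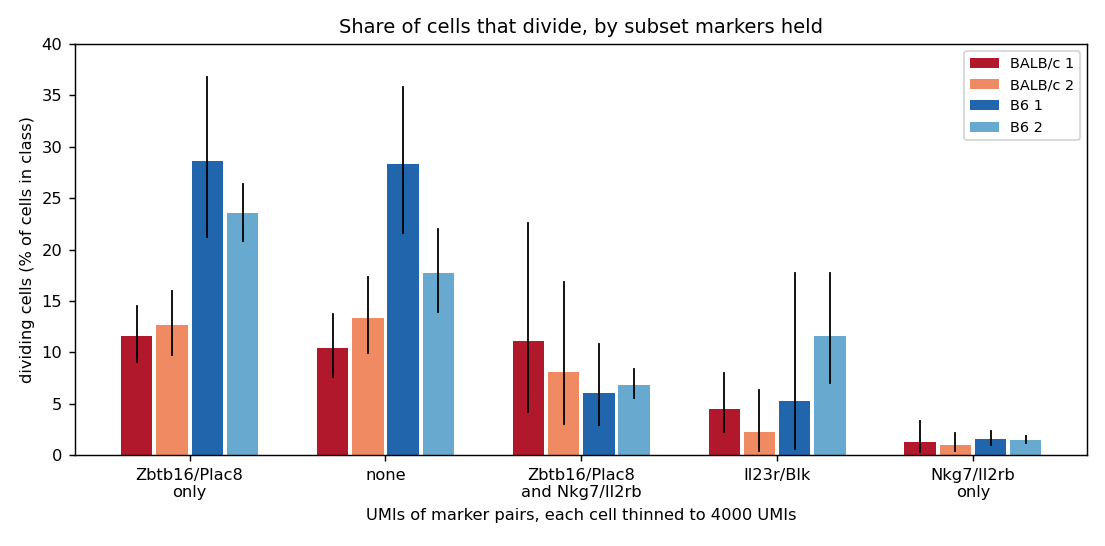
Percent of cells that were dividing, by the marker pairs held after thinning to 4000 UMIs, in each library, with exact 95% binomial intervals as lines. The share stayed between 1.01% and 1.54% in cells with Nkg7 and Il2rb alone and reached 28.6% in cells with Zbtb16 and Plac8 alone in B6 1.

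Levels of the 6 marker genes in the summed UMIs of dividing cells, as CPM scaled by TMM factors, were as follows. Zbtb16 (mm10, chr9:48654297-48836222) was at 368, 351, 289 and 553 CPM in dividing cells. The B6 libraries again lay on either side of the BALB/c libraries, with a log2 strain difference of -0.21 ± 0.28 (SE; edgeR quasi-likelihood, adjusted p = 0.759). Without B6 2 the difference was 0.32 and passed (edgeR, adjusted p = 0.043). Plac8 (chr5:100553725-100572245) was at 209, 264, 262 and 216 CPM, a log2 strain difference of 0.01 ± 0.16 (adjusted p = 0.989). In the other cells Plac8 was at 77.5 to 98.3 CPM, below the dividing cells of its library in 4 of 4 cases.

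Nkg7 (chr7:43437073-43438249) was at 5.85 and 26.7 CPM in dividing cells of BALB/c 1 and 2 and at 146 and 154 CPM in those of B6 1 and 2. The groups did not overlap, and Nkg7 was lower in BALB/c by -3.19 ± 0.53 on the log2 scale (edgeR, adjusted p = 0.0364; 0.0533 without BALB/c 1). Il2rb (chr15:78479256-78495271) was at 101 and 109 CPM in BALB/c and at 163 and 197 CPM in B6, a log2 difference of -0.76 ± 0.14 (adjusted p = 0.0439; 0.557 without BALB/c 1 and 0.479 without BALB/c 2). Tbx21 was at 10.1 and 11.3 CPM in BALB/c and at 39.2 and 49.5 CPM in B6, a log2 difference of -2.04 ± 0.19 (adjusted p = 0.00661; 0.138 and 0.0982 without BALB/c 1 and 2).

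Il23r (chr6:67422932-67491855) was at 12.2, 6.33, 2.59 and 9.47 CPM in dividing cells, with overlapping groups (log2 difference 0.50 ± 0.58, edgeR adjusted p = 0.717). Blk (chr14:63372836-63417037) was at 34.0, 14.3, 11.8 and 17.1 CPM, also overlapping (0.73 ± 0.41, adjusted p = 0.437). In other cells both genes were higher in BALB/c, Il23r by 1.69 ± 0.19 (adjusted p = 0.0203) and Blk by 2.17 ± 0.29 (adjusted p = 0.0266) on the log2 scale. Neither call held without BALB/c 1 (edgeR adjusted p = 0.158 and 0.153) or BALB/c 2 (0.0705 for both).

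**Figure D3:**
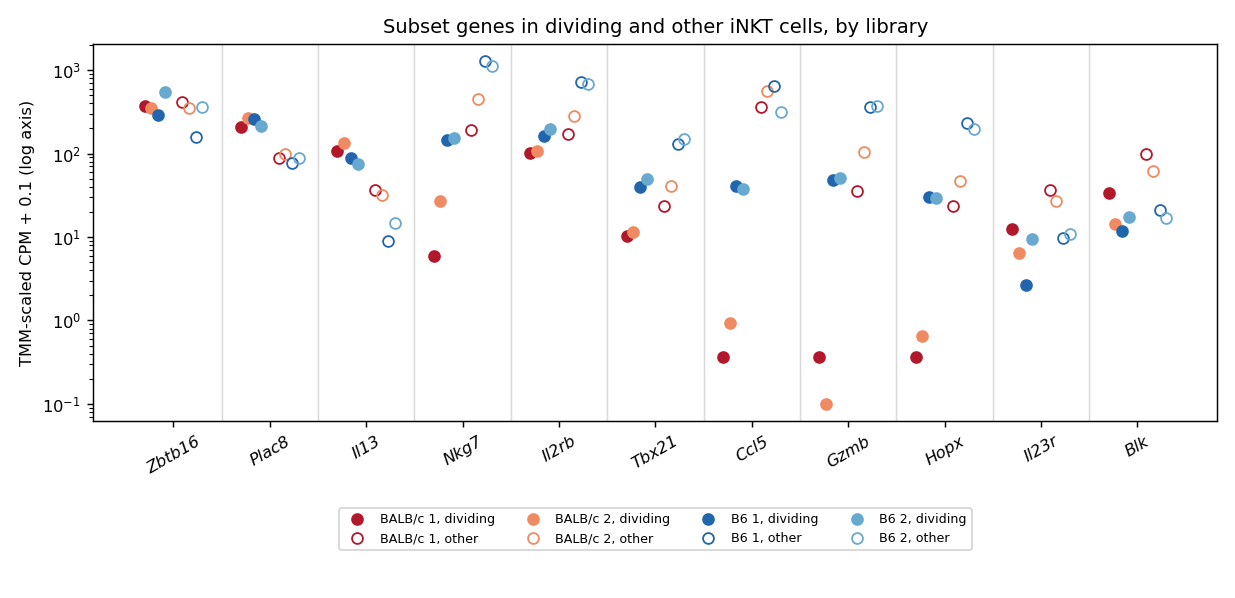
TMM-scaled CPM plus 0.1, on a log axis, of 11 subset genes in the summed UMIs of dividing (filled) and other (open) cells of each library. Ccl5, Gzmb and Hopx lay below 1 CPM in both BALB/c sets of dividing cells and between 29.5 and 50.8 CPM in both B6 sets.

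Effector genes of iNKT1 cells had few UMIs in BALB/c dividing cells and more in B6 dividing cells. Gzmb (chr14:56258838-56262260), the gene of granzyme B, had 1 UMI in 254 BALB/c dividing cells and 773 UMIs in 131 of 610 B6 dividing cells. Per UMI summed, the B6 level was 393 times the BALB/c level, with a counting interval of 70.3 to 15531. This interval, like that of Hopx below, pools the libraries of a strain and takes UMIs as independent. It leaves out spread between cells and between libraries. In the other cells of BALB/c 1 and 2, Gzmb was at 35.4 and 104 CPM. Ccl5 (chr11:83525778-83530518), a chemokine of cytotoxic lymphocytes, was at 0.27 and 0.83 CPM in BALB/c dividing cells and at 40.9 and 37.8 CPM in B6 dividing cells, a log2 difference of -6.10 ± 0.34 (edgeR, adjusted p = 0.00159). In other cells Ccl5 was at 362, 561, 651 and 313 CPM, with overlapping groups (log2 difference -0.00 ± 0.42, adjusted p = 0.997). Hopx, a homeodomain cofactor, had 3 UMIs in BALB/c and 457 in B6 dividing cells, a ratio of 77.4 (26.3 to 377).

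Thymocyte-like cells held these genes in the same order of strains. In CPM without TMM factors, Gzmb was at 1.79, 0, 33.8 and 93.4 in thymocyte-like cells and at 0.27, 0, 48.8 and 55.0 in dividing cells. Ccl5 was at 3.58, 0.83, 54.1 and 29.0 against 0.27, 0.81, 41.5 and 40.9, and Hopx at 1.79, 0.83, 24.8 and 47.7 against 0.27, 0.54, 30.7 and 32.0. At 4000 UMIs per cell, Gzmb was found in 9.62% and 24.0% of B6 thymocyte-like cells and in 10.8% and 13.8% of B6 dividing cells. For none of Gzmb, Ccl5 and Hopx were the summed levels of dividing cells above those of thymocyte-like cells in both B6 libraries. Thymocyte-like cells had medians of 2705 and 3070.5 UMIs in B6 1 and 2, and dividing cells 29150 and 23612. The same free RNA thus weighs less in the CPM of dividing cells, and this comparison cannot say how much of their level is free RNA. The UMIs were uneven between cells. In B6 1, Ccl5 had 142 UMIs in 9 of 121 dividing cells, 73 of them in 1 cell. In B6 2 it had 451 UMIs in 74 of 489 dividing cells, 126 of them in 1 cell. Gzmb reached 37 and 62 UMIs in 1 dividing cell of B6 1 and of B6 2. Whether these UMIs stem from the dividing cells themselves, from free RNA or from doublets was not tested.

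Other iNKT1 and natural killer genes were lower in BALB/c dividing cells by smaller factors. Gzma, the gene of granzyme A, was at 3.99 and 1.65 CPM in BALB/c and at 50.2 and 48.2 CPM in B6 (log2 difference -4.08 ± 0.30, edgeR adjusted p = 0.00294). Cxcr3, a chemokine receptor, was at 7.98 and 6.88 against 54.5 and 59.2 CPM (-2.91 ± 0.16, adjusted p = 0.00159). Cd160, an inhibitory and activating receptor of cytotoxic cells, was at 3.72 and 5.78 against 50.7 and 46.4 CPM (-3.33 ± 0.23, adjusted p = 0.00194). Klrb1c, which encodes the NK1.1 antigen that BALB/c mice lack, differed by -5.38 ± 0.34 in dividing and by -7.09 ± 0.21 in other cells, and its epitope is one by which the strains are known to differ. The levels in B6 thymocyte-like cells, without TMM factors, differed by gene. In them Gzma was at 125 and 82.7 CPM, Cxcr3 at 21.4 and 81.9 CPM, Klrb1c at 46.2 and 87.8 CPM and Cd160 at 5.64 and 40.1 CPM. Nkg7 was at 123 and 265 CPM and Tbx21 at 9.02 and 38.0 CPM in them. Dividing cells were above these levels in both B6 libraries for Cd160 and Tbx21, in B6 1 only for Cxcr3 and Nkg7, and in neither for Gzma. Dividing cells were far deeper than thymocyte-like cells, so this order does not measure free RNA. The iNKT1 list summed to 954, 895, 1532 and 1766 CPM in dividing cells and to 188, 191, 793 and 1716 CPM in thymocyte-like cells. Ccl5, Gzmb, Hopx, Gzma, Cxcr3, Cd160 and Klrb1c passed the test under each of the 15 alternatives run for the strain comparison in dividing cells.

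Over all genes, the strain comparison in dividing cells called 299 of 10259 genes (2.91%), 145 higher (1.41%) and 154 lower (1.5%) in BALB/c at an adjusted p under 0.05. In other cells, 1387 of 12387 genes (11.2%) were called, 725 higher (5.85%) and 662 lower (5.34%). Both comparisons use the same 4 libraries. Of the 299 genes, 233 (77.9%) were called in other cells in the same direction, which is 16.8% of the 1387, and 2 in the opposite direction. The counts moved with single libraries: without either BALB/c library the dividing cells gave 27 and 38 calls, and without B6 1 or B6 2 2836 and 1038. Without cells holding B cell or myeloid UMIs there were 336. With the stricter thymocyte exclusion, 206 of the 299 calls were kept in the same direction.

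Of the 16 iNKT1 genes, 9 were lower in BALB/c dividing cells, none was higher and 7 did not pass, with a median log2 difference of -3.05 against -0.01 over all genes tested. In other cells 8 of the 16 were lower (median -1.74). Of 16 cytotoxicity and natural killer receptor genes tested, which overlap that list, 10 were lower and none higher (median -3.70). Setting the 1 gene of each list at 0 UMIs in BALB/c to its bound left both medians as they were. Of 12 iNKT2 genes, 1 was lower and none higher: Il17rb, a chain of the IL-25 receptor, was at 27.9 and 26.7 CPM in BALB/c and at 45.8 and 47.9 CPM in B6 (-0.76 ± 0.13, edgeR adjusted p = 0.0399; 0.359 and 0.421 without BALB/c 1 and 2). Of 13 iNKT17 genes tested, 2 were higher, the neighbouring genes Tmem176a (1.33 ± 0.22, adjusted p = 0.0339) and Tmem176b (1.40 ± 0.21, adjusted p = 0.026), and neither passed without BALB/c 1 (0.231 and 0.243) or BALB/c 2 (0.371 and 0.305).

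Few genes of the cell cycle were called between the dividing cells of the strains. None of 38 DNA replication genes, 10 deoxynucleotide synthesis genes, 21 cyclin, CDK and E2F genes or 26 histone and chromatin genes was called, with list medians between -0.07 and 0.08 on the log2 scale. With 2.91% of all genes called, lists of this size would hold few calls, so these counts are near the background. Of 56 mitosis genes 1 was called. That gene was Pttg1 (chr11:43420250-43426251), the gene of securin, the inhibitor of separase that is destroyed at anaphase. It was at 179 and 195 CPM in BALB/c dividing cells and at 89.9 and 63.2 CPM in B6 dividing cells (1.32 ± 0.19, edgeR adjusted p = 0.0239; 0.27 and 0.338 without BALB/c 1 and 2). In other cells the order was the opposite, at 11.9 and 10.4 against 71.3 and 75.6 CPM (-2.65 ± 0.11, adjusted p = 0.00651; 0.111 and 0.0686 without BALB/c 1 and 2). Of glycolysis, mitochondrial respiration and Myc and ribosome genes, 18, 43 and 24 were tested and none was called, which is also near the 2.91% over all genes.

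Of 18 CDK inhibitor and quiescence genes tested, 2 were higher in BALB/c dividing cells, Cdkn2a and Cdkn1a, and 16 did not pass (median 0.08). Cdkn2a, which encodes p16 and p19ARF, was at 39.6 and 55.9 against 15.6 and 18.5 CPM (1.48 ± 0.21, edgeR adjusted p = 0.0235; 0.114 and 0.25 without BALB/c 1 and 2). Cdkn1a, which encodes p21, was at 7.45 and 8.26 against 2.31 and 1.84 CPM (1.98 ± 0.34, adjusted p = 0.0406; 0.434 and 0.537 without BALB/c 1 and 2). Id3, an inhibitor of E proteins that is high in early iNKT cells, was at 678 and 734 against 466 and 427 CPM (0.68 ± 0.12, adjusted p = 0.0426; 0.443 and 0.568 without BALB/c 1 and 2). Bcl2, a survival factor, was lower in BALB/c, at 14.9 and 20.4 against 38.6 and 46.4 CPM (-1.26 ± 0.20, adjusted p = 0.0323; 0.293 and 0.163 without BALB/c 1 and 2).

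Some of the largest strain differences in dividing cells, those of Ifi213, Hspa1a and Hspa1b, were about as large in other cells. For Oas1a and Alpl only values in dividing cells are given. Oas1a, an interferon-induced enzyme, had 0 UMIs in BALB/c and 390 in B6 dividing cells. Its UMIs were at least 66.0-fold higher in B6 against a floor of 3 UMIs over the strain. Reads of both strains were counted against mm10, and a loss of BALB/c reads at genes that differ in sequence was not tested. Ifi213, an interferon-induced gene, differed by -6.24 ± 0.33 in dividing and -5.79 ± 0.13 in other cells. The heat shock genes Hspa1a and Hspa1b, near-identical copies whose reads may be shared, were higher in BALB/c dividing cells by 3.94 ± 0.47 and 3.64 ± 0.34 and in BALB/c other cells by 4.01 ± 0.52 and 3.69 ± 0.57. They are also genes of the response to cell handling, and 4 of 19 genes of that list were higher and none lower in BALB/c dividing cells. Alpl, alkaline phosphatase, was at 56.9 and 47.9 against 6.05 and 8.30 CPM (2.83 ± 0.20, edgeR adjusted p = 0.00226; 0.0735 without BALB/c 1).

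**Figure D4:**
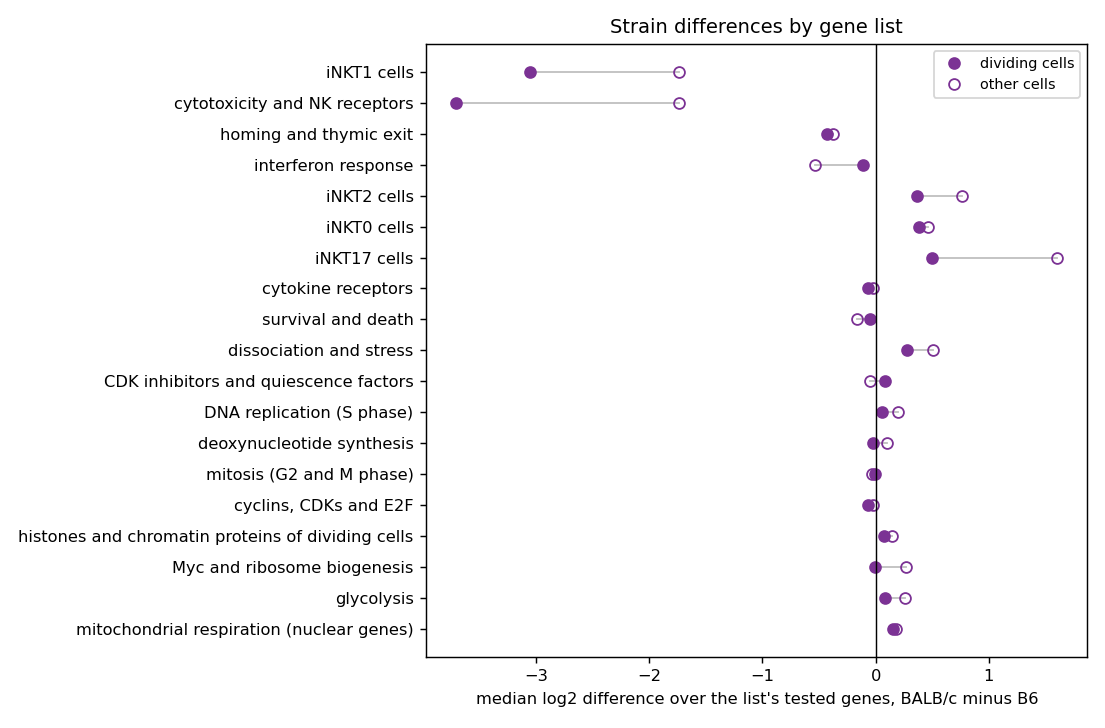
Median log2 difference, BALB/c minus B6, over the tested genes of each list, in dividing (filled) and other (open) cells. The iNKT1 list lay at -3.05 in dividing and -1.74 in other cells, while the DNA replication and mitosis lists lay at 0.05 and -0.01 in dividing cells.

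The few BALB/c dividing cells with the Nkg7 and Il2rb pair and without Il23r and Blk differed in content from those of B6. There were 10 and 12 such cells in BALB/c 1 and 2 and 31 and 168 in B6 1 and 2. Ccl5 was at 0 CPM in both BALB/c sets, where a count of 0 allows up to 12.4 and 9.18 CPM, and at 181 and 119 CPM in the B6 sets. Hopx was at 0 in both BALB/c sets and at 76.8 and 64.5 CPM in the B6 sets. Plac8 was at 307 and 242 CPM in the BALB/c sets and at 182 and 128 CPM in the B6 sets. These CPM are without TMM factors, the cells were chosen by Nkg7 and Il2rb, and no test was made. The levels in B6 thymocyte-like cells bear on them too.

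Dividing cells were next set against the other cells of the same library. The rule chose cells within this contrast, so the values are a description and nothing is read from the counts: 6634 of 11886 genes (55.8%) were called, 3270 higher (27.5%) and 3364 lower (28.3%), with the 12 genes of the rule left out. All 38 replication genes were higher (median log2 difference 2.47, against -0.04 over all genes), as were 55 of 56 mitosis genes (median 5.68). Cdc6, which loads the replicative helicase, was at 51.0 to 70.2 CPM in dividing and 1.07 to 2.20 CPM in other cells. Cenpf, a kinetochore protein, was at 80.8 to 116 CPM in dividing and 1.07 to 1.16 CPM in other cells. Replication UMIs exceeded mitosis UMIs in 58.8%, 61.8%, 51.2% and 58.1% of the dividing cells. Both BALB/c libraries were above both B6 libraries, the nearest by less than 1 point (exact permutation p = 0.33, the smallest possible).

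Promoters of these genes were read for letters known from cell cycle control, to show what list members that are high together share in sequence. The RefSeq table (GRCm38.p6) gave the 250 bases before the start for 33 of the 38 replication genes, 47 of the 56 mitosis genes and 9844 of 13021 genes of the tests. The cell cycle homology region, TTTGAA on either strand, was found in 15 of 47 mitosis promoters (31.9%), 3 of 33 replication promoters (9.09%) and 10.8% of all. The E2F letters TTTCCCGC, TTTGGCGC or TTTCGCGC, on either strand, were found in 8 of 33 replication promoters (24.2%), 2 of 47 mitosis promoters (4.26%) and 3.15% of all. CCAAT on either strand was found in 74.5% of mitosis promoters, 57.6% of replication promoters and 36.8% of all. A match is a description of letters and not a site. The last 100 bases before the start are shown for Ckap2l and Kif11, of the mitotic spindle, and Mcm6, of the replicative helicase, chosen as list members with the letters there and no overlap with the annotated gene, with the letters in capitals. Their positions are chr2:129297213-129297312 (minus strand), chr19:37376282-37376381 (plus strand) and chr1:128359706-128359805 (minus strand).
Ckap2l: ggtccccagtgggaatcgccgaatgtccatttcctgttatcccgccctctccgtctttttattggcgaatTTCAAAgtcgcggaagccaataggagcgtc
Kif11: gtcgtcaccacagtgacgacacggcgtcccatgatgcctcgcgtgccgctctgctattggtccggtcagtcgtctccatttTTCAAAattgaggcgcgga
Mcm6: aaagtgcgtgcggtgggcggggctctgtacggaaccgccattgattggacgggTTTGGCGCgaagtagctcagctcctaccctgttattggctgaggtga

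Ckap2l was at 71.0, 63.6, 55.3 and 40.7 CPM in dividing cells and at 0.40 to 0.59 CPM in other cells. Mcm6 was at 256, 265, 333 and 328 CPM in dividing cells and at 56.5, 54.5, 113 and 127 CPM in other cells, with no call between the strains in dividing cells (log2 difference -0.32 ± 0.11, edgeR adjusted p = 0.205).

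Metabolic genes were higher in dividing cells by smaller factors. Of 43 nuclear genes of mitochondrial respiration 40 were higher (median 0.48), of 18 glycolysis genes 11 were higher and 2 lower (median 0.75), and of 13 genes of amino acid uptake and one-carbon metabolism 9 were higher (median 0.71). Mthfd2, a mitochondrial folate enzyme, was at 112 to 129 CPM in dividing and 36.9 to 53.1 CPM in other cells. Tfrc, the transferrin receptor, was at 29.4 to 40.7 against 10.3 to 15.8 CPM. Gapdh was at 728 CPM in B6 2 dividing cells and 2131 to 2938 CPM in the other libraries, and at 370 against 1191 to 1500 CPM in other cells. B6 2 is also the one library with another software version in its header, whose part in this value was not tested, and Gapdh was named after its values were seen.

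Genes of differentiated cells were lower in dividing cells, and those of resting cells went both ways. All 16 iNKT1 genes (median -3.21), all 19 tested cytotoxicity and natural killer receptor genes (median -3.33), 14 of 19 cytokine receptors (median -0.85) and 32 of 38 interferon response genes (median -0.66) were lower. Il7r, the IL-7 receptor, was at 262 to 287 CPM in dividing and 852 to 1193 CPM in other cells. Of 20 CDK inhibitor and quiescence genes, 7 were higher and 11 lower (median -0.79), with Cdkn2c, the gene of p18, at 58.3 to 72.1 against 6.88 to 13.2 CPM. Btg1, an antiproliferative factor, was at 120 to 176 against 601 to 737 CPM, and Tsc22d3, a glucocorticoid-induced gene, at 2.13 to 13.8 against 24.9 to 133 CPM. Of the cytokines, Il13 was at 108, 132, 88.5 and 74.2 CPM in dividing and 36.5, 31.7, 8.79 and 14.6 CPM in other cells, and Il4 at 169, 243, 119 and 136 against 230, 215, 80.3 and 115 CPM. Il13 was higher in dividing cells in 4 of 4 libraries and Il4 in 3 of 4.

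**Figure D5:**
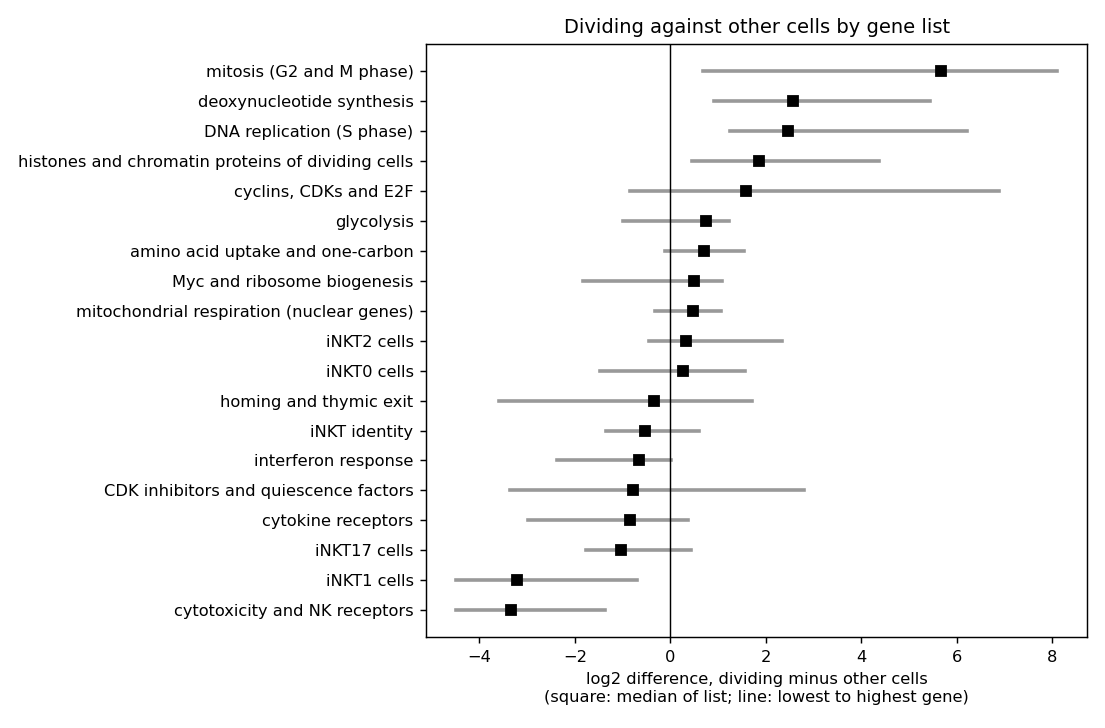
Log2 difference between dividing and other cells for each gene list, with the median as a square and the lowest to highest tested gene as a line. Cell cycle lists lay highest, with a mitosis median of 5.68, and the iNKT1 and cytotoxicity lists lowest, at -3.21 and -3.33.

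Part of this contrast moved with depth. Against other cells with at least the lower quartile of the dividing cells' UMIs (100, 73, 39 and 643 cells), the log2 difference of Plac8 was -0.04 in place of 1.51, of Tbx21 0.06 in place of -1.53, of Il2rb -0.05 in place of -1.44 and of Nkg7 -0.64 in place of -3.37. Il13 remained higher at 0.50, Il4 was lower at -0.81, and Cenpf was at 5.59 in place of 6.47. These deep other cells held Zbtb16 and Plac8 at 579 to 837 CPM and Nkg7 and Il2rb at 71.6, 78.0, 426 and 664 CPM, and 17.3% of those of B6 2 were marked as likely doublets.

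Whether the step from other to dividing cells differed between strains was tested as an interaction, which called 723 of 12850 genes (5.63%), 316 higher (2.46%) and 407 lower (3.17%) in BALB/c. Ccl5 gave -6.37 ± 0.55 on the log2 scale (edgeR, adjusted p = 6.36e-06), Zbtb16 -0.86 ± 0.09 (adjusted p = 3.77e-05) and Pttg1 4.04 ± 0.17 (adjusted p = 2.09e-09). Of 12 iNKT2 genes 8 and of 14 iNKT17 genes 8 were lower and none higher, with medians of -0.79 and -1.21 against 0.01 over all genes. Against the deep other cells 17 genes were called in all. There Pttg1 gave 3.70 and passed, Ccl5 gave -0.51 and Zbtb16 -0.14 without passing (adjusted p = 0.969 and 0.853), and Nkg7 turned from -1.40 to 3.83 (adjusted p = 0.000412).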

How the data were processed

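The deposited files hold UMI counts for each gene and cell barcode in 4 libraries. Per the submitters' processing notes, the authors made these counts with Cell Ranger 7.1.0 and mm10, while the file headers name 6.0.0 for 3 libraries and 7.1.0 for B6 2. The handling of intronic reads is not given in these sources and could shift the levels of genes between libraries. Whether BALB/c reads map to mm10 as well as B6 reads was not tested, which bears on genes with few UMIs in BALB/c. Summed counts of dividing and of other cells were tested per library with edgeR 4.0.16 (R 4.3.3; quasi-likelihood, TMM, filterByExpr, Benjamini-Hochberg over all genes tested), for the strains in dividing cells, for the strains in other cells, and for the interaction. Dividing against other cells was fitted with library as a block and is given as a description. Sums do not separate fewer cells of a type from less RNA per cell. Exact two-sided permutation over libraries was used for shares, after thinning to 4000 UMIs, which left out 0, 1, 1 and 19 dividing cells. Doublets were scored with Scrublet (scanpy 1.11.5), the top 0.8% per 1000 barcodes were marked, and they were kept except in an alternative. No per-cell annotation was used. The members and the gene lists were chosen with earlier results of these data known. Named genes were the 6 markers, fixed subset genes, up to 4 members of lowest p of each list, and per comparison the 10 called genes of largest change in each direction at a mean of 20 CPM or more (5 of lowest p for the interaction). Values of some listed genes are not reported here. The fits were tested on simulated data. Alternatives covered other size factors, DESeq2 1.42.0, filters, thresholds, doublets and each library left out; those using deep other cells, B cell or myeloid UMIs and crossed numbers were chosen after seeing the data.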

Additional observations from a re-analysis of the deposited data

Results flagged for a closer look

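The step from other to dividing cells differed between strains by the interaction test for the following named genes (edgeR, log2 difference in BALB/c minus that in B6). Of the marker and lineage genes, Zbtb16 gave -0.86, Nkg7 -1.40, Il23r -1.33 and Blk -1.61, and Il2rb gave 0.80. Of the genes of lowest p, Pttg1 gave 4.04, Pmepa1 1.82, Nedd4 1.55, Ly6e 1.36 and Id2 0.89. In the other direction, Ly6c1 gave -4.32, Lgals3 -1.81, Emb -1.47, Id3 -1.37 and Rexo2 -1.01.

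Ly6e, a surface protein of immature thymocytes, was at 1408, 1614, 2417 and 2027 CPM in dividing cells and at 677, 668, 2813 and 2434 CPM in other cells. Lgals3, the gene of galectin 3, was lower in BALB/c dividing cells (220 and 180 against 344 and 376 CPM) and higher in BALB/c other cells (526 and 384 against 229 and 250 CPM). Pmepa1, a TGF-beta target, was higher in BALB/c dividing cells (123 and 113 against 28.0 and 23.7 CPM), while its levels in other cells overlapped (106 and 137 against 104 and 88.6 CPM). Depth moved with these steps, since dividing cells were deeper than other cells, and against deep other cells Nkg7 gave 3.83, Il23r 2.15, Blk 1.32 and Lgals3 1.09, of which Nkg7 and Lgals3 passed. There Zbtb16 (-0.14), Pmepa1 (1.16), Id3 (-0.13), Rexo2 (-0.30), Emb (0.35) and Ly6c1 (0.96) no longer passed, with edgeR adjusted p of 0.853, 0.0963, 0.92, 0.307, 0.645 and 0.863.

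Outside the comparisons, 12.6% of the thymocyte-like cells, 124 of 986, had 4 or more UMIs of the 6 genes. They were 21, 36, 26 and 41 cells.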

How the results depend on the processing

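The counts of calls depended on single libraries. The strain comparison in dividing cells gave 27 to 2836 calls with 1 library left out and 1416 with no filter on low genes. In other cells it gave 0 to 5338. Both counts of 0 by edgeR came without a BALB/c library, where 1581 and 1945 genes had an unadjusted p under 0.05; DESeq2 on all libraries gave 1967. The interaction gave 261 with DESeq2, 1123 with no filter and 17 against deep other cells, and the dividing-against-other count became 3206. A replicate block gave 226 calls in dividing and 667 in other cells, and the crossed replicate block gave 422 and 531. The deviations of same-numbered samples correlated at -0.126 in dividing and -0.134 in other cells, so the numbers were not taken to pair the libraries.

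The strain difference in the Zbtb16 and Plac8 share was -2.59 points at 2000 UMIs, -1.50 with 1 or more UMIs and -1.22 with the stricter thymocyte exclusion, and -11.9 to 14.8 with 1 library left out. That of the Il23r and Blk share was -0.29 to 5.65 with 1 library left out. The Nkg7 and Il2rb share kept its sign under the 12 alternatives run. Of 1960 alternative values for 128 gene values, 1785 were labelled as the same. These kept direction and call, or were called in neither fit, where direction was not compared. With direction kept, 125 lost the call and 36 gained it, and 14 turned with a call in either fit. Against deep other cells, Plac8 (-0.040), Tbx21 (0.057), Il4 (-0.81) and Lef1 (-0.18) turned in dividing against other cells. In the interaction Nkg7 (3.83), Il23r (2.15), Blk (1.32), Gzmb (3.82), Lgals3 (1.09), Ly6c1 (0.96), Emb (0.35) and Il13 (0.081) turned. With 1 library left out, the Zbtb16 strain difference in dividing cells ran from -0.60 to 0.32 and the Il23r interaction from -1.63 to 0.040. The cause was not tested for any of these.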

Other observations

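Some values rest on single dividing cells. Ccl4, a chemokine, had 138 UMIs in BALB/c dividing cells, all in 1 cell of BALB/c 2, and its interaction value of 9.75 on the log2 scale rests on that cell. Cd79a, a B cell receptor chain, had 61 UMIs in 1 dividing cell of BALB/c 2 and 56 in 1 of B6 1. Cd74, the invariant chain of class II molecules, had 522 of its 751 UMIs in dividing cells of B6 1 in 1 cell. Il31ra, a cytokine receptor chain, was at 394 CPM in dividing and 791 CPM in other cells of B6 2, and had no UMI in the dividing cells of the other libraries, B6 1 included. Il17a, of the iNKT17 list, had 355 UMIs in BALB/c dividing cells, all in BALB/c 2, and 1 UMI in B6 dividing cells. The number of cells that held them is not reported here.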
